A study of Macaca mulatta with 95 samples.

Results

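The 13 cells described here are inner cells of cultured rhesus macaque (Macaca mulatta) blastocysts, chosen from 95 single cells of 7 embryo stages by their titles alone. They comprise the inner cells of middle and early blastocysts whose title begins with the letter G or H. Middle blastocyst inner cells numbered 4 in letter G and 4 in letter H and came from embryos of about day 5.5, in which the cavity filled much of the embryo. Early blastocyst inner cells numbered 3 in letter G and 2 in letter H and came from embryos of about day 5 with a small cavity. All embryos had been fertilised outside the body from oocytes of hormone-stimulated females and were cultured in HECM-9 medium with fetal bovine serum, and only embryos of normal appearance were used. Cells are named below by stage (MB for middle and EB for early blastocyst), letter and the number in their title. Before the embryo was taken apart, the membrane dye PKH2 was applied to its outside, and a cell without fluorescence was taken as inner. The polyadenylated RNA of each cell was amplified by PCR and sequenced as a library of its own.

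The labels do not say what a letter stands for, and they name no animal, embryo or culture. The cells of a letter and stage may come from 1 embryo, so cells are not replicates, each group counts as 1 sample, and no test and no p-value can be given. Each stage difference was therefore taken within letter G and within letter H as well as over all 13 cells, and an SD describes how single cells varied. A difference between stages within a letter cannot be told apart from a difference between the embryos and cells that were picked.

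The blastocyst is the last stage before implantation. Its outer cells form the trophectoderm, the forerunner of the placenta, and its inner cell mass separates into the epiblast, which forms the embryo proper, and the hypoblast (primitive endoderm), which lines the cavity and forms yolk sac endoderm. POU5F1, NANOG and SOX2 are transcription factors of the pluripotent epiblast, GATA4, SOX17 and FOXA2 are transcription factors of the hypoblast, and CDX2, GATA2 and GATA3 are transcription factors of the trophectoderm. In the mouse, FGF signalling through ERK moves inner cells toward the hypoblast, and epiblast cells pass from a naive to a primed state of pluripotency as the embryo nears implantation.

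Expression was taken to be in RPKM, the reads of a gene per kilobase of its length and per megaread of the library. Reads recovered from the values ranged from 2.92 to 7.99 megareads per cell (median 7.22), with the lowest in EB G-18. The number of genes at 1 RPKM or more ranged from 3891 to 5691 per cell. The summed RPKM differed between letters and stages. It was 663230 to 708380 in middle and 679120 to 745770 in early blastocyst G cells, and 836050 to 855750 in middle and 935750 to 1000600 in early blastocyst H cells. Single cells differed from one another within each group. The median Pearson correlation of log2(RPKM + 1) between cells of a group was 0.611 for middle and 0.551 for early blastocyst G cells. It was 0.579 for middle blastocyst H cells and 0.657 for the single pair of early blastocyst H cells. MB G-10 (0.484) and EB G-18 (0.520) had the lowest median correlation with the other 12 cells. Markers of cumulus cells summed to 6.53 RPKM at most in any of the 13 cells and those of sperm to 0. Summed trophectoderm markers lay at 835 to 4348 RPKM in middle and 327 to 2354 RPKM in early blastocyst inner cells. In outer cells they lay at 7745 to 66567 RPKM in the middle (letter B) and 11206 to 31896 RPKM in the early blastocyst (letter A). None of the 13 inner cells reached the level of these outer cells, but inner cells of letters A and B did. Inner cells lay at 28685 to 44094 RPKM in the middle (letter B) and 3102 to 15498 RPKM in the early blastocyst (letter A). The gap to the 13 cells thus cannot be told apart from a difference between letters, and it is no check of their inner position.

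The stage difference of a gene was taken as the log2 ratio of mean RPKM + 1, middle over early blastocyst, among genes with a mean of at least 5 RPKM in either stage. Because 1 RPKM is added to each mean, the ratio understates the difference of genes with low values. With all 13 cells, 1676 of 6693 genes (25.0%) were at least 2-fold higher and 1232 (18.4%) at least 2-fold lower in the middle blastocyst. Within letter G, 2165 of 6676 genes (32.4%) were higher and 1661 (24.9%) lower. Within letter H, 2250 of 6279 genes (35.8%) were higher and 1730 (27.6%) lower. The letters showed no shared direction over all genes. Of 5350 genes measured in both letters, 1836 were past 2-fold in both, 836 of them the same way and 1000 in opposite ways (45.5% the same way). Across these 5350 genes, which are no independent replicates, the log2 ratio within G and that within H had a Pearson correlation of -0.07 and a Spearman correlation of -0.07. A gene was called only where it passed 2-fold with all 13 cells and the same way within each letter. By that rule 655 genes (9.79%) were higher and 396 (5.92%) lower in the middle blastocyst. Since genes past 2-fold the same way were fewer than opposite ones, a call by itself does not show a stage difference shared by the letters. Only 21 of the higher genes (0.314%) and 13 of the lower ones (0.194%) also had middle and early cells that did not overlap within either letter. Separation within a single letter asks less of a gene and was commoner. In G 416 genes were higher (6.23%) and 272 lower (4.07%) past 2-fold without overlap, and in H 425 higher (6.77%) and 687 lower (10.9%).

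**Figure D1:**
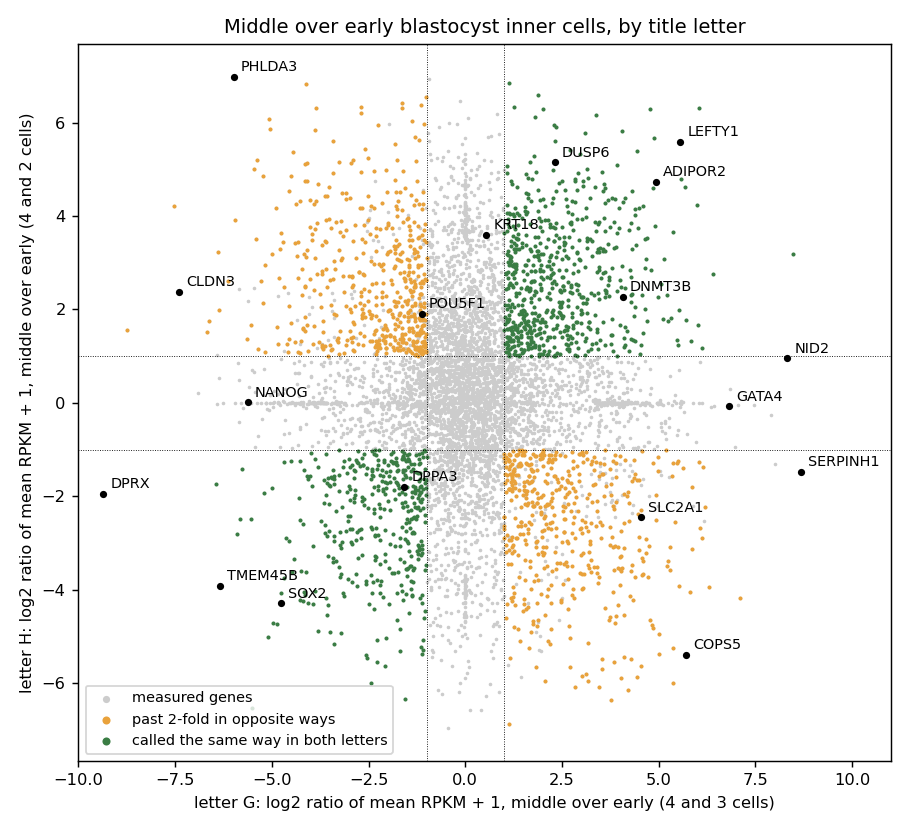
Log2 ratio of mean RPKM + 1, middle over early blastocyst inner cells, within letter G (x axis, 4 and 3 cells) and within letter H (y axis, 4 and 2 cells). Each point is a gene, the dotted lines mark 2-fold, green points are the 655 higher and 396 lower called genes, orange points the 1000 genes past 2-fold in opposite ways, and black points the genes named on the plot. The cloud has no slope, and GATA4 and NID2 lie far to the right, below 2-fold in letter H.

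Hypoblast genes set the middle blastocyst cells of letter G apart. GATA4 stood at 133, 141, 103 and 111 RPKM in the 4 middle blastocyst G cells, against 0.102, 0.18 and 0 RPKM in the 3 early ones. In letter H it was listed at 0 in all 4 middle blastocyst cells and stood at 0.0261 and 0.0672 RPKM in the early ones. Every middle blastocyst G cell thus lay above every other cell, at a mean of 122 ± 18.0 RPKM (SD over 4 cells) and a log2 ratio of 6.81 within G. SOX17 was high in 3 of the same 4 cells, with 94.2, 133, 50.4 and 0 RPKM in middle and 0, 0.026 and 12.4 RPKM in early blastocyst G cells, a log2 ratio of 3.77. The cell at 0 was MB G-10, and SOX17 did not pass 0.0243 RPKM in any H cell. FOXA2 stood at 24.0, 0.382, 3.95 and 43.5 RPKM in middle and 0, 0.125 and 0 RPKM in early blastocyst G cells and at no more than 0.0235 RPKM in H cells. The middle cells lay above the early ones in G (4.19), though MB G-03 by little. PDGFRA, a receptor of the mouse hypoblast, reached 0.135 RPKM at most, in MB G-04, and GATA6 was not analysed here.

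Basement membrane and collagen-folding genes were high in the same cells. NID2, which encodes the matrix protein nidogen 2, stood at 489.8, 313, 512 and 197 RPKM in middle and 0.0231, 0.539 and 0 RPKM in early blastocyst G cells (8.32). In letter H it was 4.07, 0, 0 and 0.107 RPKM in middle and 0.0534 and 0.0573 RPKM in early cells, with only MB H-03 raised (0.95). SERPINH1, the collagen chaperone HSP47, stood at 552, 347, 520.0 and 939 RPKM in middle and 0.325, 0.557 and 0.458 RPKM in early blastocyst G cells (8.67). In letter H it was at most 0.037 RPKM in middle and 3.43 and 0.223 RPKM in early cells (-1.48), so the order of the stages was turned at low levels. SPARC, a collagen-binding matrix protein, stood at 166, 173, 324 and 38.6 RPKM in middle blastocyst G cells and at 0.613 RPKM or less in all early cells, and COL4A1, a chain of basement membrane collagen, at 14.1, 92.4, 79.0 and 97.2 RPKM and 0.226 RPKM or less. Both were at 0.0713 RPKM or less in middle blastocyst H cells. APOA1, the main protein of high-density lipoprotein and a product of yolk sac endoderm, spread more widely, at 2836, 1253, 4368 and 105 RPKM in middle and 46.1, 2.1 and 0.345 RPKM in early blastocyst G cells (6.96). In H it was 0, 3.22, 38.3 and 0 RPKM in middle and 11.5 and 30.6 RPKM in early cells (-0.95), and it became a gene past 2-fold in opposite ways when values were divided by size factors.

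The list counts here and below are to be read beside the shares over all measured genes. Those were 32.4% higher and 24.9% lower in G and 35.8% higher and 27.6% lower in H. By the rule for calls they were 9.79% higher and 5.92% lower. Of 14 hypoblast markers measured in letter G, 8 were at least 2-fold higher and 1 was lower in the middle blastocyst. Their median log2 ratio was 3.57 beside 0.17 over all measured genes. In letter H only 4 hypoblast markers were measured, 2 of them higher and 0 lower, at a median of 0.68 beside 0.28. The sum of the 20 hypoblast markers in the table ran from 771 (MB G-10) to 5367 RPKM in middle and from 143 to 176 RPKM in early blastocyst G cells. In H it ran from 25.8 to 122 RPKM in middle and from 35.9 to 50.3 RPKM in early cells. The matrix and basement membrane list, which shares 7 genes with the hypoblast list, had 9 of 14 genes higher and 0 lower in G (median 2.79) and 2 higher and 2 lower of 5 in H (median 0.34). Its called genes were COL4A2, NID1 and ITGA6. COL4A2 stood at 22.0 to 64.9 RPKM in middle blastocyst G cells but passed 2-fold within H only through MB H-09 (9.21 RPKM), without which its log2 ratio in H was 0.44. NID1 passed within H only through MB H-03 (6.01 RPKM), without which that ratio was -0.01. ITGA6, the laminin receptor subunit integrin alpha 6, kept its call whichever cell was left out. It stood at 11.2, 19.9, 48.6 and 37.2 RPKM in middle and 17.1, 0.0803 and 8.08 RPKM in early blastocyst G cells, and at 34.2, 8.53, 10.7 and 0.026 RPKM in middle and 3.32 and 0.025 RPKM in early H cells. The cells overlapped within each letter. COL4A3BP is in the matrix list by its symbol but encodes a ceramide carrier. The lipoprotein and secretion list had only 3 measured members, APOA1, APOE and APOC3, with 0 called. APOE, a lipid carrier, stood at 6.53 to 121 RPKM in middle and 6.88 to 117 RPKM in early blastocyst G cells and at 29.4 to 158 RPKM in middle and 199 to 218 RPKM in early H cells. Of the fibroblast markers only COL1A2 was measured. It stood at 10.5, 1.2, 85.1 and 118 RPKM in middle blastocyst G cells and 0.554 RPKM or less in early ones, while COL3A1, DCN, LUM and POSTN were at 0 in all 13 cells. Of the blood cell markers LYZ and TYROBP were measured, and LYZ was above 1 RPKM only in MB H-03 (189.5 RPKM) and EB G-18 (29.0 RPKM). TYROBP stood at 0.105 to 64.4 RPKM in middle and 0 to 183 RPKM in early blastocyst G cells and at 0.202 to 154 RPKM in middle and 41.8 to 85.5 RPKM in early H cells.

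**Figure D2:**
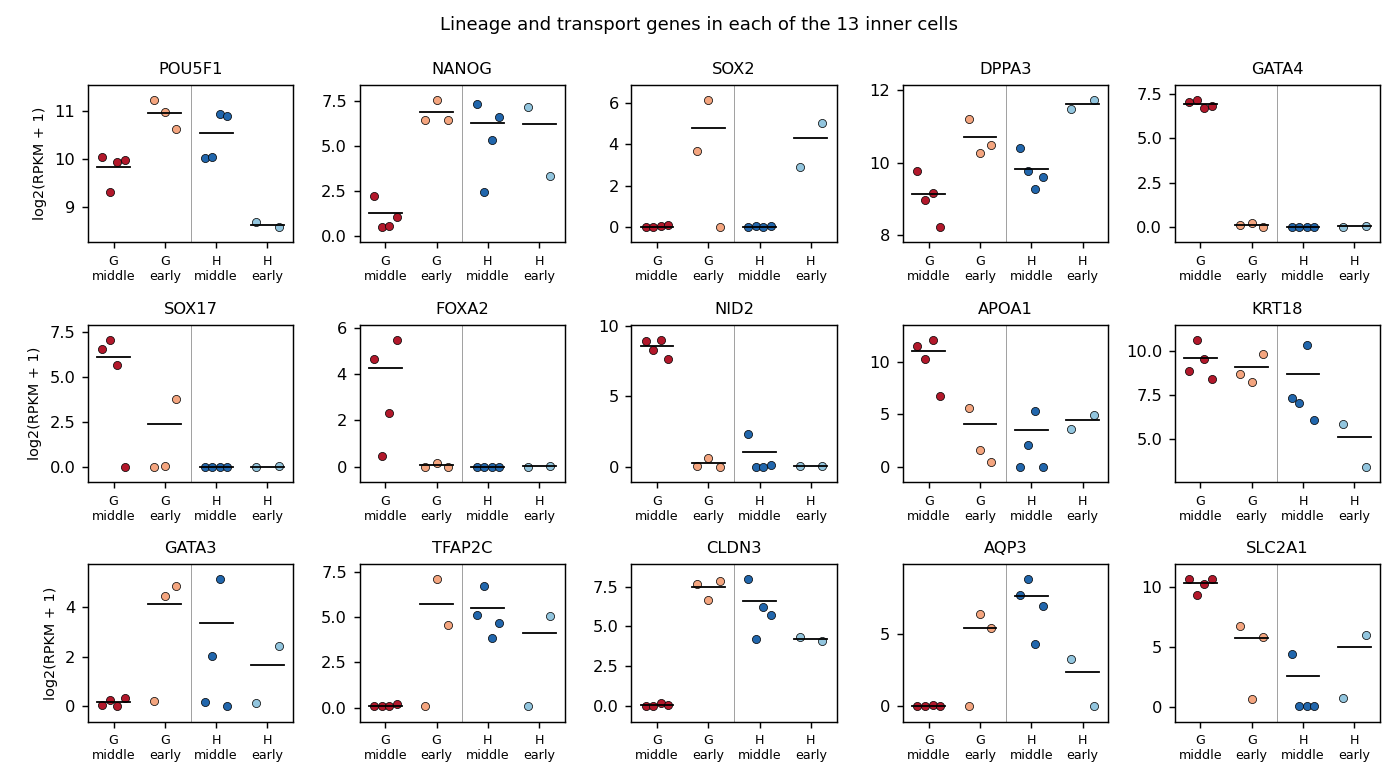
Log2(RPKM + 1) of 15 lineage, junction and transport genes in each of the 13 inner cells, with middle left of early blastocyst within letter G (red and orange) and letter H (dark and light blue). Each point is a cell and each black line is log2 of the group's mean RPKM + 1, and the y axes differ between panels. GATA4 and NID2 are high in the 4 middle blastocyst G cells, DPPA3 is lower in middle cells of both letters, and POU5F1 is lower in G and higher in H.

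Pluripotency genes differed between the letters as well. POU5F1 was high in all 13 cells, at 1056, 631, 976 and 1002 RPKM in middle and 2395, 2021 and 1578 RPKM in early blastocyst G cells. In letter H it stood at 1033, 1052, 1952 and 1918 RPKM in middle and 411 and 381 RPKM in early cells. The stages overlapped in neither letter, but the middle blastocyst was lower in G (916 ± 193 against 1998 ± 409 RPKM, SD over 4 and 3 cells, log2 ratio -1.12) and higher in H (1489 ± 515 against 396 ± 21.3 RPKM, SD over 4 and 2 cells, log2 ratio 1.91). NANOG was nearly gone from middle blastocyst G cells, at 3.69, 0.395, 0.48 and 1.08 RPKM against 85.5, 184 and 84.5 RPKM in early ones (-5.63). In H it stood at 160.4, 4.45, 39.2 and 96.4 RPKM in middle and 139 and 9.16 RPKM in early cells, a wide and overlapping spread (0.02). The cells of letter G with the least NANOG were thus the cells with the most GATA4. SOX2 was the epiblast factor lower in both letters. All 8 middle blastocyst cells were at 0.0612 RPKM or less, against 11.8, 68.5 and 0 RPKM in early G cells and 6.41 and 31.2 RPKM in early H cells. Its log2 ratio was -4.59 with 13 cells, -4.76 within G and -4.28 within H, the call was kept whichever cell was left out, and only EB G-18 lay as low as the middle cells.

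Other epiblast and naive genes rested on fewer cells. GDF3, a ligand that acts with NODAL, reached 82.8 RPKM in EB G-11 and 0.503 RPKM or less in every other cell. PRDM14, a repressor of DNA methylation in the germ line and naive cells, reached 80.0 RPKM in EB G-13 and 0.297 RPKM or less elsewhere. Their log2 ratios within G (-4.71 for GDF3 and -4.68 for PRDM14) are each those of a single cell. DPPA3, also called Stella, an oocyte and germ cell protein that guards DNA methylation marks after fertilisation, was lower in both letters without overlap. It stood at 875, 506, 579 and 298 RPKM in middle and 2384, 1244 and 1445 RPKM in early blastocyst G cells (-1.58), and at 1353, 872, 617 and 775 RPKM in middle and 2889 and 3394 RPKM in early H cells (-1.80). DPPA5, an RNA-binding protein of pluripotent cells, was lower without overlap in H, at 751, 461, 263 and 109 RPKM in middle and 1761 and 2757 RPKM in early cells (-2.51), but overlapped in G, at 116 to 432 and 22.1 to 755 RPKM. ZFP57, a protector of imprinted marks, stood at 0 to 70.6 RPKM in middle and 0.33 to 26.7 RPKM in early blastocyst G cells and at 4.65 to 77.0 RPKM in middle and 0 to 14.7 RPKM in early H cells. Of the epiblast markers, 3 of 12 were higher and 8 lower in G (median -1.55) and 3 of 11 were higher and 3 lower in H (median 0.40), with TDGF1 called higher and SOX2 lower. Of the naive genes, 0 of 11 were higher and 7 lower in G (median -1.15), beside 32.4% and 24.9% of all genes. In H 4 of 11 were higher and 2 lower (median 0.63), beside 35.8% and 27.6% of all genes. DPPA3 was the only call among the naive genes.

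Of the Nodal and FGF genes, LEFTY1, TDGF1, DUSP6, SPRY2 and ETV4 were called higher in the middle blastocyst. LEFTY1, a secreted inhibitor of Nodal that Nodal itself induces, stood at 0, 173, 0.685 and 32.0 RPKM in middle and 0, 0.342 and 0 RPKM in early blastocyst G cells. In letter H it stood at 3.41, 125, 0 and 65.5 RPKM in middle and 0.0551 and 0 RPKM in early cells. Its log2 ratios were 5.55 in G and 5.59 in H, carried by 2 of 4 middle cells in G and 3 of 4 in H, the others lying below 1 RPKM. TDGF1 (CRIPTO), the co-receptor of Nodal, stood at 0.0354, 21.8, 0.118 and 52.0 RPKM in middle and 0.117, 0.278 and 0.687 RPKM in early blastocyst G cells (3.84). Letter H cells showed 41.1, 4.1, 41.8 and 54.9 RPKM in middle and 5.26 and 0.116 RPKM in early cells (3.31). In G the same cells, MB G-03 and MB G-10, carried LEFTY1 and TDGF1. NODAL itself was at 23.3 RPKM in MB G-03 and at 0.217 RPKM or less in the other 12 cells, so its ratio within G (2.63) is that of 1 cell. ACVR1B, a type I receptor for Nodal and activin, stood at 6.11, 4.17, 3.06 and 18.8 RPKM in middle blastocyst G cells and 0.0411 RPKM or less in early ones (3.15). In H the stages overlapped (0.64), with 23.3 RPKM in MB H-03 and 6.79 RPKM in EB H-05. The Nodal list had 6 of 10 genes higher and 1 lower in G (median 1.89) and 4 of 7 higher and 1 lower in H (median 1.73), beside 32.4% of all genes higher in G and 35.8% in H. The median in G was 0.59 with median-of-ratios size factors (3 of 8 higher and 2 lower), 0.71 with the other size factors and 0.82 without MB G-03. LEFTY1 and TDGF1 were called, 2 of 8 genes measured over the 13 cells, beside 9.79% of all genes.

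DUSP6, a phosphatase that removes the activating phosphates of ERK and is itself induced by ERK, stood at 91.0, 181, 467 and 48.9 RPKM in middle and 57.5, 22.8 and 36.2 RPKM in early blastocyst G cells (2.31). Its levels in H were 78.2, 4.51, 46.1 and 11.6 RPKM in middle and 0.0319 and 0 RPKM in early cells (5.15), without overlap in H and with MB G-10 inside the early range in G. SPRY2, a feedback inhibitor of receptor tyrosine kinase signalling, stood at 28.0, 75.3, 4.26 and 3.23 RPKM in middle and 0, 10.7 and 0.431 RPKM in early blastocyst G cells (2.61). Within H the values were 56.7, 22.9, 0.0257 and 0 RPKM in middle and 0.0423 and 0 RPKM in early cells (4.36), where 2 of 4 middle cells were high. ETV4, an ETS transcription factor downstream of FGF, stood at 95.1, 68.5, 101 and 65.5 RPKM in middle and 45.1, 65.2 and 0.776 RPKM in early blastocyst G cells (1.13). In letter H there were 182, 171, 80.2 and 10.1 RPKM in middle and 2.97 and 55.8 RPKM in early cells (1.88). The call of ETV4 was lost without EB G-18 (0.57 within G) or EB H-03 (0.98 within H), and with median-of-ratios size factors. DUSP4, a related phosphatase, was high only in letter G, at 21.1, 135, 76.4 and 47.2 RPKM in middle and 1.72, 3.75 and 0 RPKM in early cells (4.65), and did not pass 0.0628 RPKM in H. FGFR1, an FGF receptor, stood at 167, 59.8, 63.0 and 99.1 RPKM in middle and 1.04, 15.0 and 51.5 RPKM in early blastocyst G cells (2.06) and overlapped in H (0.38). The FGF and ERK list had 6 of 11 genes higher and 2 lower in G (median 1.13) and 6 of 9 higher and 1 lower in H (median 2.11), beside 32.4% of all genes higher in G and 35.8% in H, and the median in G was 0.57 without EB G-18. DUSP6, SPRY2 and ETV4 were called, 3 of 10 genes measured over the 13 cells, beside 9.79% of all genes.

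The list of genes of the primed state holds DUSP6 and ETV4 too. DNMT3B, a de novo DNA methyltransferase, stood at 873, 485, 862 and 690.0 RPKM in middle and 48.5, 59.8 and 19.0 RPKM in early blastocyst G cells (4.07), far from overlapping. H cells gave 3.52, 23.3, 91.1 and 0.30 RPKM in middle and 10.4 and 0.228 RPKM in early cells (2.28), and without MB H-09 that ratio was 0.67. CD24, a surface glycoprotein of primed pluripotent cells, stood at 412, 173, 347 and 288 RPKM in middle and 91.7, 106 and 0.349 RPKM in early blastocyst G cells (2.19). In H it stood at 28.7, 57.4, 548 and 18.1 RPKM in middle and 0.206 and 49.2 RPKM in early cells (2.67), or 0.48 without MB H-09. CDH2, N-cadherin, was high in G only, at 26.8, 21.6, 17.3 and 93.8 RPKM in middle cells and 0.0619 RPKM or less in early ones (5.28), against at most 1.76 RPKM in H. In all, 4 of 7 measured primed genes were called higher (9.79% of all genes). Within G 6 of 7 were higher and 1 lower (median 2.31), and within H 5 of 7 were higher and 2 lower (median 1.88). Without MB H-09 only 2 genes of this list were called, and within H 2 of 7 were higher and 2 lower (median 0.48). Among DNA methylation genes, DNMT3B and UHRF1 were called, with 2 of 8 higher and 1 lower in G (median 0.68) and 6 of 7 higher and 0 lower in H (median 2.28). UHRF1, the maintenance methylation factor, stood at 18.5, 0.335, 3.25 and 0 RPKM in middle and 0.0388 RPKM or less in early blastocyst G cells, and at 0.0155, 2.02, 19.8 and 0 RPKM in middle and 3.99 and 0.0147 RPKM in early H cells. Its call was lost under both size-factor scalings and without MB H-09 (-0.84 within H) or EB H-05 (0.37), and without MB G-02 its mean fell below 5 RPKM in both stages. MBD3, a subunit of the NuRD repressor, was higher without overlap in H, at 105, 150.1, 189 and 131 RPKM in middle and 7.44 and 6.95 RPKM in early cells (4.14), and level in G (0.10).

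**Figure D3:**
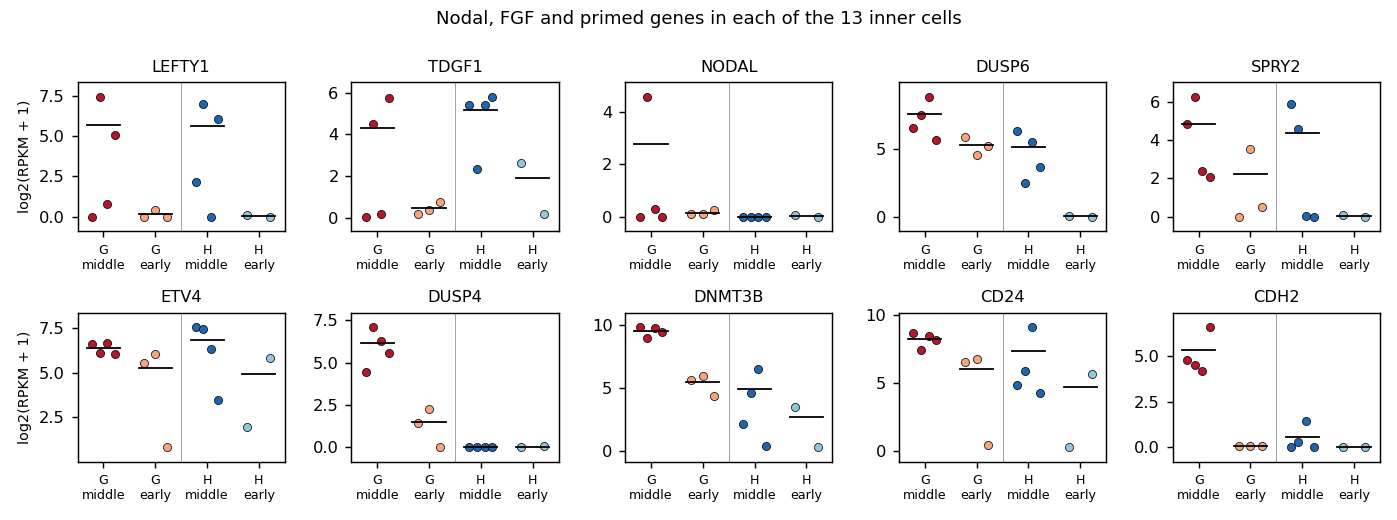
Log2(RPKM + 1) of 10 Nodal, FGF and primed-state genes in each of the 13 inner cells, with middle left of early blastocyst within letter G (red and orange) and letter H (dark and light blue). Points are cells, black lines are log2 of the group's mean RPKM + 1, and y axes differ between panels. LEFTY1 and TDGF1 are high in some middle cells of each letter, whereas DUSP4 and CDH2 are high only in the middle blastocyst cells of letter G.

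Of the BMP, WNT and LIF lists, 9, 8 and 9 genes were measured over the 13 cells, with 1 called higher in each. Of all genes, 9.79% were called higher. In the BMP list 5 of 9 genes were higher and 1 lower in G (median 2.55, or -0.28 with median-of-ratios size factors) and 4 of 8 higher and 3 lower in H (median 0.28). BMP6, a BMP ligand, stood at 16.1, 0.286, 4.58 and 128 RPKM in middle blastocyst G cells and 0.0201 RPKM or less in early ones (5.23), and was listed at 0 in all H cells. ID2, a BMP-induced inhibitor of helix-loop-helix factors, stood at 43.8, 0.175, 45.8 and 1.96 RPKM in middle and 0.0543, 3.77 and 0 RPKM in early blastocyst G cells (3.40) and at most 0.168 RPKM in H. ACVR1, a type I BMP receptor, was the called member (2.76 in G and 2.35 in H) but rested on MB G-03 (21.5 RPKM, 0.85 without it) and MB H-09 (31.2 RPKM, 0.13 without it). BMPR1A, another type I receptor, was higher in G (3.88) and lower in H (-1.12), and not past 2-fold in H once values were scaled by size factors. In the WNT list 4 of 8 genes were higher and 1 lower in G (median 0.73) and 3 of 9 higher and 3 lower in H (median 0.74). WNT3, a WNT ligand, was at 146 RPKM in MB H-05 and at 0 in the other 12 cells. AXIN1, a scaffold of the beta-catenin destruction complex, was called higher at ratios close to the threshold (1.09 in G and 1.17 in H), and without MB H-09 it stood at -0.98 in H. The call was also lost without MB G-10 (0.63 in G), EB G-18 (0.66 in G) or EB H-05 (0.74 in H). FZD5, a WNT receptor, was lower in both letters without reaching the call (-0.78 in G and -1.27 in H). GSK3B, the kinase of the destruction complex, overlapped in both (-0.62 and -1.61).

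In the LIF and STAT3 list 4 of 9 genes were higher and 3 lower in G (median -0.12) and 3 of 10 higher and 0 lower in H (median 0.72). SOCS3, an inhibitor of JAK that STAT3 induces, was its called member, at 10.7, 6.39, 10.9 and 34.2 RPKM in middle and 0, 14.5 and 0 RPKM in early blastocyst G cells (1.51). Letter H cells showed 4.01, 0.493, 6.11 and 12.7 RPKM in middle and 1.12 and 0.64 RPKM in early cells (1.86), the cells overlapped in both letters, and without MB G-10 the ratio within G was 0.83. JAK1, the receptor-bound kinase, had log2 ratios of 3.22 in G and 0.91 in H, SOCS2, a related inhibitor, 3.47 and -0.25, and the interleukin-6 receptor gene IL6R 1.45 and 0.66. Cells overlapped in both letters for all 3 genes.

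Trophectoderm markers and epithelial junction genes differed in direction between the letters. Of 14 trophectoderm markers measured in each letter, 3 were higher and 8 lower in G (median -2.45), beside 32.4% and 24.9% of all genes. In H 12 were higher and 1 lower (median 2.67), beside 35.8% and 27.6% of all genes. Leaving out any 1 cell left the median between -3.33 and -1.81 in G and between 2.06 and 3.42 in H. The levels behind these counts were low in part. CDX2 stood at 0.0251 RPKM or less in middle and 56.5, 0 and 17.7 RPKM in early blastocyst G cells (-4.68), and at 1.8, 0.442, 4.27 and 5.0 RPKM in middle and 5.79 and 4.43 RPKM in early H cells (-0.66). GATA3 stood at 0.255 RPKM or less in middle and 0.169, 20.2 and 27.6 RPKM in early blastocyst G cells (-3.92). Its levels in H were 0.118, 3.03, 33.0 and 0.0194 RPKM in middle and 0.0869 and 4.29 RPKM in early cells (1.65), with MB H-09 the only middle cell past 5 RPKM. GATA2 reached 27.7 RPKM in the same cell and 4.28 RPKM or less in the other 12. TFAP2C, a transcription factor of trophoblast and germ cells, was at 0.137 RPKM or less in middle and 0.081, 134 and 22.8 RPKM in early blastocyst G cells (-5.64). Within H the values were 33.4, 104, 13.3 and 24.9 RPKM in middle and 0.0624 and 32.7 RPKM in early cells (1.38). TFAP2A, its paralog, passed 5 RPKM only in EB G-11 (46.3 RPKM).

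The keratin KRT18, of simple epithelia, was high in all 7 G cells. It stood at 461, 1582, 742 and 340.0 RPKM in middle and 419, 295 and 901 RPKM in early blastocyst G cells, which overlapped (0.54). In letter H there were 162, 132, 1304 and 65.4 RPKM in middle and 57.1 and 9.69 RPKM in early cells, which did not (3.60). KRT19, another keratin, was the only called trophectoderm marker, at 134, 1.05, 364 and 119 RPKM in middle and 90.8, 0.224 and 0.221 RPKM in early blastocyst G cells (2.31). H cells gave 0.575, 24.0, 236 and 1.04 RPKM in middle and 0.325 and 0.419 RPKM in early cells (5.60), and MB H-09 again was the highest. CYP11A1, the enzyme that starts steroid synthesis from cholesterol, was lower in G (-3.59) and higher in H (2.48), with 113, 116, 180.0 and 0 RPKM in middle and 35.0 and 0.227 RPKM in early H cells. MB H-09 had the highest summed trophectoderm markers of the 13 cells (4348 RPKM), and without it 9 of 11 measured markers were still higher and 1 lower in H (median 2.06).

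Junction and transport genes build the sealed outer epithelium that pumps fluid into the cavity. Of those measured, 1 of 18 was higher and 8 lower in G (median -0.52), beside 32.4% and 24.9% of all genes. In H 9 of 16 were higher and 1 lower (median 1.21), beside 35.8% and 27.6% of all genes. The list had 0 calls. Of the 16 measured in both letters, 7 were lower in G and higher in H, beside 9.53% of all genes. CLDN3, a tight junction claudin, stood at 0, 0, 0.151 and 0.0567 RPKM in middle and 201, 98.9 and 231 RPKM in early blastocyst G cells (-7.40). In H it stood at 245, 17.9, 74.2 and 50.6 RPKM in middle and 19.2 and 16.4 RPKM in early cells (2.38). DSC2, a desmosomal cadherin, stood at 0.0135, 0.802, 17.0 and 0.138 RPKM in middle and 132, 172 and 79.7 RPKM in early blastocyst G cells (-4.55), and at 66.0, 31.3, 82.6 and 97.0 RPKM in middle and 8.8 and 22.8 RPKM in early H cells (2.06). Its stages overlapped in neither letter, while in CLDN3 MB H-05 lay within the early H range. AQP3, a water and glycerol channel, stood at 0.0947 RPKM or less in middle and 0.0314, 83.2 and 42.1 RPKM in early blastocyst G cells (-5.38), and at 200.2, 428, 18.3 and 119 RPKM in middle and 8.45 and 0 RPKM in early H cells (5.20). AQP11, an intracellular aquaporin, went the other way, at 11.8, 0, 41.7 and 0.169 RPKM in middle blastocyst G cells with early ones at 0, and at 0.0312 RPKM or less in middle and 0 and 7.31 RPKM in early H cells.

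In the mouse, Hippo signalling keeps the coactivators YAP1 and WWTR1 out of the nucleus of inner cells. In letter G 3 of 10 genes of the list were higher and 2 lower (median 0.03, or -0.26 and -0.04 with the size-factor scalings), and in letter H 3 were higher and 6 lower (median -2.84). Without EB H-03 the H counts were 2 higher and 3 lower of 7, at a median of -0.96. YAP1 stood at 0.296, 0.0523, 0.0331 and 1.08 RPKM in middle and 27.8 and 33.3 RPKM in early H cells (-4.53), with no overlap. In G it was 23.3, 11.7, 8.34 and 35.6 RPKM in middle and 32.3, 16.3 and 46.7 RPKM in early cells, which overlapped (-0.66). WWTR1 (TAZ) was lower without overlap in G instead, at 2.88, 19.5, 1.8 and 0.0128 RPKM in middle and 95.5, 91.7 and 58.6 RPKM in early cells (-3.55), and overlapped in H (-0.59). NF2, an upstream activator of the pathway, was higher without overlap in H, at 20.0, 15.7, 36.4 and 6.74 RPKM in middle and 2.64 and 1.05 RPKM in early cells (2.86), and at 2.81 RPKM or less in G. The called genes were MOB1A, an adaptor of the LATS kinases (1.30 in G and 1.02 in H), and STK3, the MST2 kinase, lower (-1.15 in G, with all 4 middle H cells at 0). Both calls depended on single cells. MOB1A stood at -0.60 in H without MB H-10 (641 RPKM), and STK3 at -0.10 in G without EB G-11 (57.6 RPKM). In H STK3 rested on EB H-03 (16.9 RPKM), with EB H-05 at 0.0415 RPKM. The call of MOB1A was also lost without MB G-10 (0.66 in G), EB G-13 (0.97 in G) or EB H-03 (0.79 in H), and that of STK3 without MB G-10 (-0.77 in G).

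A small set of genes differed between the stages without overlap in either letter. ADIPOR2, a receptor for the hormone adiponectin, led the 12 named higher genes, which were ranked by the smaller of the letters' ratios among those without overlap in either letter. It stood at 26.8, 16.3, 67.1 and 19.3 RPKM in middle and 0.0303, 0.16 and 0.119 RPKM in early blastocyst G cells (4.92), and at 32.8, 72.8, 2.93 and 23.1 RPKM in middle and 0.466 and 0.0751 RPKM in early H cells (4.74). B4GALT3, a galactosyltransferase of the Golgi, stood at 47.8, 37.3, 134 and 25.2 RPKM in middle and 0.12, 4.13 and 0.0783 RPKM in early blastocyst G cells (4.67), and at 32.7, 65.2, 71.5 and 62.1 RPKM in middle and 9.22 and 2.61 RPKM in early H cells (3.09). No early cell passed 0.466 RPKM for ADIPOR2 or 9.22 RPKM for B4GALT3. Among the others were genes of mitochondria and growth control. POLRMT, the mitochondrial RNA polymerase, stood at 47.0, 106, 47.4 and 85.7 RPKM in middle and 6.5, 21.9 and 0.848 RPKM in early blastocyst G cells (2.75), and at 20.1, 105, 43.1 and 115 RPKM in middle and 6.23 and 0.521 RPKM in early H cells (4.03). COA4, an assembly factor of cytochrome c oxidase, stood at 154, 209, 174 and 150.2 RPKM in middle and 19.9, 78.2 and 0 RPKM in early blastocyst G cells (2.36), and at 135, 398, 139 and 66.0 RPKM in middle and 11.0 and 26.6 RPKM in early H cells (3.23). AKT1S1 encodes PRAS40, an inhibitory subunit of mTORC1, and SHOC2 a scaffold of RAS and RAF signalling. AKT1S1 had log2 ratios of 2.35 in G and 2.54 in H. SHOC2 stood at 18.4, 13.3, 1.51 and 0.0175 RPKM in middle blastocyst G cells, 15.0, 0.458, 3.78 and 60.2 RPKM in middle H cells and 0.0164 RPKM or less in early cells.

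The remaining named higher genes had varied roles. CANT1, a calcium-activated nucleotidase, had log2 ratios of 4.48 in G and 3.75 in H. CHTF18, part of a clamp loader that acts in sister chromatid cohesion, had 3.45 and 2.85, ACY1, an aminoacylase, 2.33 and 5.92, MED16, a Mediator subunit, 2.27 and 2.98, and ZMYND19, a MYND-type zinc finger protein, 2.18 and 3.78. EGFL7, a secreted protein known from endothelium, was at 0 in all 5 early cells and stood at 31.2, 0.33, 0.849 and 4.81 RPKM in middle G and 6.17, 26.8, 9.75 and 51.3 RPKM in middle H cells. That the stages do not overlap is part of the rule that chose these genes, and groups this small leave some such genes by the order of cells alone. All 12 kept their call whichever of the 13 cells was left out, which the choice of large ratios without overlap makes likely beforehand.

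Among the 12 named lower genes, TMEM45B, a transmembrane protein, and DPRX, a PRD-like homeobox gene of the early embryo, showed the largest drop in letter G. TMEM45B stood at 0, 0, 0.0526 and 0.118 RPKM in middle and 137, 47.2 and 67.0 RPKM in early blastocyst G cells (-6.35), and at 0.328, 0, 0.0734 and 0.0807 RPKM in middle and 7.65 and 24.1 RPKM in early H cells (-3.91). DPRX stood at 0.657, 0.778, 1.27 and 1.33 RPKM in middle and 963, 1337 and 1639 RPKM in early blastocyst G cells (-9.35). Letter H cells showed 1792, 2794, 968 and 190.0 RPKM in middle and 5681 and 5343 RPKM in early cells (-1.94). DPRX was thus almost lost in G but still abundant in H. MTFMT, the formyltransferase of the mitochondrial initiator tRNA, stood at 4.43, 0.0833, 0.156 and 0.524 RPKM in middle and 7.87, 15.9 and 53.7 RPKM in early blastocyst G cells (-3.54), and at 0.121, 0, 0.0362 and 0.577 RPKM in middle and 2.77 and 42.4 RPKM in early H cells (-4.32). UBE3D, a ubiquitin ligase, was at 0.0359 RPKM or less in all middle cells, against 0.0635, 12.6 and 36.5 RPKM in early G and 1.61 and 21.0 RPKM in early H cells. EIF4ENIF1, which carries the cap-binding protein eIF4E and represses translation in oocytes, had log2 ratios of -1.90 in G and -3.64 in H. WASL (N-WASP), an activator of actin branching, had -3.01 and -1.77, TANGO6, a protein of the secretory pathway, -2.63 and -2.19, and R3HDM2, an R3H domain protein, -2.41 and -1.95.

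Some calls among the lower genes rested on fewer cells. MINPP1, an inositol polyphosphate phosphatase, had -3.22 in G, but in H it rested on EB H-03 (60.2 RPKM), with -0.04 without that cell. CHURC1, a small zinc-binding protein, had -3.15 in G and -1.38 in H, and its highest value was that of EB G-18 (19.2 RPKM). UBB, a gene of polyubiquitin, stood at 1344, 1234, 1194 and 1194 RPKM in middle and 3342, 2643 and 1828 RPKM in early blastocyst G cells (-1.07), and at 1414, 1328, 1076 and 1643 RPKM in middle and 3107 and 2409 RPKM in early H cells (-1.01). Its ratios sat at the threshold, and the call was lost under both size-factor scalings and without EB G-11, EB H-03 or MB H-09.

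**Figure D4:**
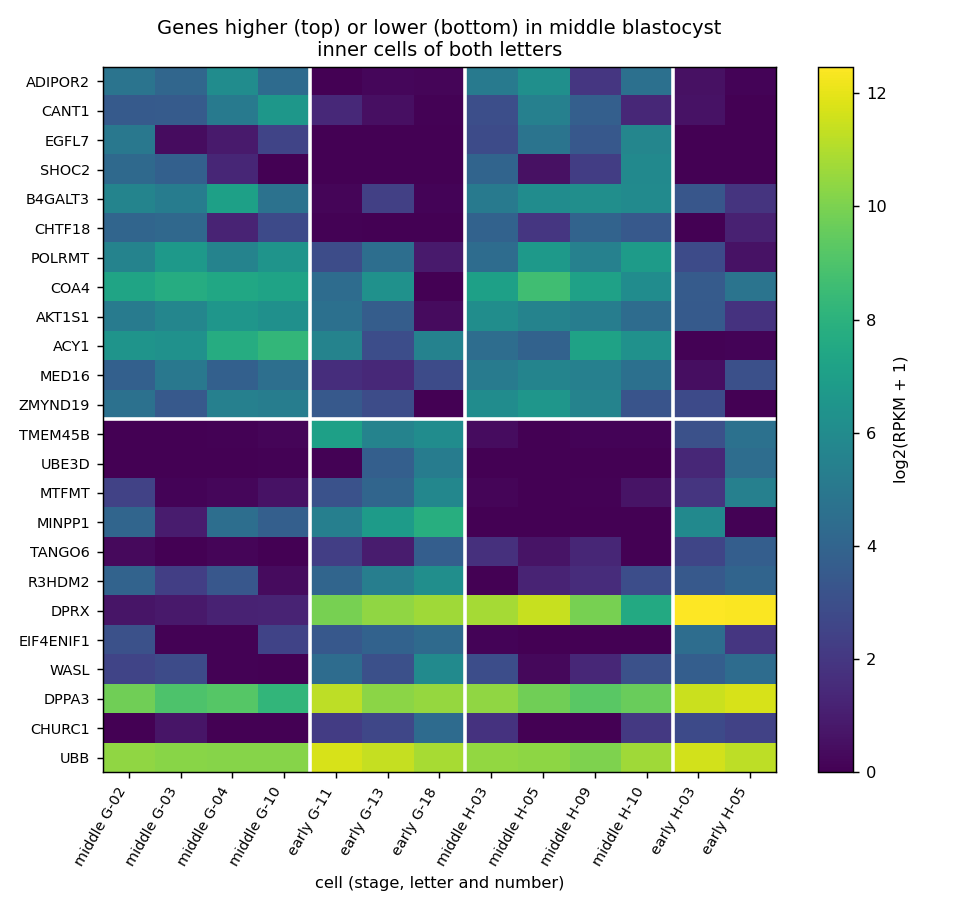
Log2(RPKM + 1) of the 12 named higher genes (top) and 12 named lower genes (bottom) in each of the 13 cells, with white lines between letters and stages and middle left of early blastocyst within each letter. These genes were chosen because their cells do not overlap within either letter, so the contrast is part of the choice. DPRX and DPPA3 are bright in early cells, and DPRX is dark only in the middle blastocyst cells of letter G.

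Of the 5350 genes measured in both letters, 490 (9.16%) were higher in G and lower in H and 510 (9.53%) lower in G and higher in H. The difference between the letters was not tested for any of them. COPS5, the catalytic subunit of the COP9 signalosome, stood at 106, 28.3, 4.44 and 122 RPKM in middle and 0.078, 0.0413 and 0.714 RPKM in early blastocyst G cells (5.69). Its levels in H were 0, 0.115, 0.0365 and 0.0401 RPKM in middle and 30.2 and 55.7 RPKM in early cells (-5.39). The stages overlapped in neither letter. PHLDA3, a p53-induced inhibitor of AKT, showed the mirror image, at 0.0465, 0, 0.154 and 0.0866 RPKM in middle and 122, 9.79 and 69.4 RPKM in early blastocyst G cells (-5.99), and at 18.2, 393, 4.77 and 86.6 RPKM in middle H cells with both early H cells at 0. Several of the largest opposite differences rested on 1 early H cell. GEMIN7, a subunit of the SMN complex, had 18.1, 43.4, 40.0 and 81.4 RPKM in middle and 0.137, 0 and 0.238 RPKM in early blastocyst G cells, but in H its early level was 0.0701 and 192 RPKM. ZBTB8OS, the tRNA ligase cofactor archease, had 80.6 and 0 RPKM in early H cells, BBOX1, an enzyme of carnitine synthesis, 0 and 59.4 RPKM, and C14orf159, a mitochondrial protein gene, 0 and 54.6 RPKM, each with all 4 middle H cells at 0. LYRM1, an LYR motif protein gene, had 18.8 and 107 RPKM in early H cells and 0 in all 4 middle H cells, while in middle G cells it stood at 6.79, 0, 90.3 and 73.3 RPKM.

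Among the genes lower in G and higher in H, PRKAG1, a regulatory subunit of AMPK, stood at 0, 0.0319, 0 and 0.0335 RPKM in middle and 66.5, 33.1 and 0 RPKM in early blastocyst G cells (-5.07), and at 0.186, 113, 105 and 45.8 RPKM in middle H cells with early H cells at 0. SAT2, an acetyltransferase, stood at 0.0719 RPKM or less in middle and 0.143, 64.5 and 33.6 RPKM in early blastocyst G cells (-5.05), and at 50.4, 0, 0.0668 and 177 RPKM in middle H cells with early H cells at 0. PROM1, the membrane glycoprotein CD133, stood at 0.060 RPKM or less in middle and 0.0149, 68.4 and 63.1 RPKM in early blastocyst G cells (-5.45), and at 30.6, 94.0, 0.725 and 0.046 RPKM in middle H cells with early H cells at 0. HINT3, a nucleotide hydrolase, had log2 ratios of -5.24 in G and 4.86 in H. In SAT2, PROM1 and HINT3 at least 1 middle H cell was as low as the early ones or near them.

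Glycolysis genes had 0 calls. In G 4 of 18 were higher and 6 lower (median 0.22, or -0.05 with median-of-ratios size factors), beside 32.4% and 24.9% of all genes. In H 7 of 16 were higher and 4 lower (median 0.71), beside 35.8% and 27.6% of all genes. SLC2A1, the glucose transporter GLUT1, was high in the middle blastocyst G cells, at 1616, 672, 1235 and 1616 RPKM against 108, 0.537 and 54.8 RPKM in early ones (4.54). Within H the values were 19.8, 0.0468, 0.0148 and 0.0163 RPKM in middle and 0.682 and 62.6 RPKM in early cells (-2.45). Of the enzymes, ALDOA and TPI1 went the other way in G, while PGK1, phosphoglycerate kinase, was higher there (1.28). ALDOA, an aldolase, stood at 105, 102, 95.7 and 132 RPKM in middle and 511, 433 and 323 RPKM in early blastocyst G cells (-1.95), and at 124, 197, 118 and 108 RPKM in middle and 42.5 and 56.2 RPKM in early H cells (1.45), with no overlap in either letter. TPI1, triosephosphate isomerase, stood at 238, 100.3, 100.1 and 79.9 RPKM in middle and 641, 209.5 and 483 RPKM in early blastocyst G cells (-1.77), and at 72.6, 76.6, 198 and 219.8 RPKM in middle and 10.3 and 5.47 RPKM in early H cells (4.01). ALDOC, the brain aldolase, passed 1 RPKM only in EB G-13 (96.8 RPKM). Oxidative phosphorylation genes also had 0 calls, with 3 of 24 higher and 2 lower in G (median 0.17) and 5 of 24 higher and 5 lower in H (median -0.41). ATP5J, a subunit of ATP synthase, had -0.08 in G and -1.65 in H, and NDUFA1, a complex I subunit, 0.92 and -2.24. SDHA, of complex II, had 0.20 and 2.09, and NDUFB9, of complex I, 0.13 and 1.88. In H the first 3 of these 4 genes did not overlap between stages, and in G all 4 did.

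Cell cycle lists differed between the letters and, in H, between single cells. S-phase genes had 0 calls, with 3 of 13 higher and 1 lower in G (median 0.69) and 4 of 13 higher and 4 lower in H (median -0.03, or 0.17 and 0.01 with the size-factor scalings). MCM4, MCM5 and MCM3, subunits of the replicative helicase, had log2 ratios of 0.69, 0.70 and -0.52 in G and of 2.17, 1.95 and -0.03 in H. TYMS, thymidylate synthase, stood at 56.4, 54.7, 19.7 and 15.7 RPKM in middle and 64.6, 60.8 and 156 RPKM in early blastocyst G cells (-1.33), and at 187, 123, 282 and 288 RPKM in middle and 22.9 and 20.4 RPKM in early H cells (3.29), with no overlap in either letter. Mitotic (G2/M) genes had 4 of 15 higher and 1 lower in G (median 0.17), beside 32.4% and 24.9% of all genes. They had 3 of 16 higher and 6 lower in H (median -0.76), beside 35.8% and 27.6% of all genes. The H result depended on a single cell. TOP2A, a topoisomerase of dividing cells, was at 198 RPKM in EB H-03 but at 0.0413 RPKM in EB H-05. AURKA, a mitotic kinase, was at 92.6 RPKM in EB H-03 but at 0.0238 RPKM in EB H-05. Without EB H-03 the list had 12 of 15 higher and 0 lower in H (median 2.98). AURKB, another mitotic kinase, was called higher, at 161, 73.2, 32.2 and 321 RPKM in middle and 15.6, 10.1 and 139 RPKM in early blastocyst G cells (1.40), and at 266, 94.2, 211 and 134 RPKM in middle and 101 and 7.87 RPKM in early H cells (1.67). It lost the call without MB G-10 (0.68 in G), EB G-11 (0.97) or EB G-13 (0.91), or without EB H-05 (0.80 in H). AURKA was called lower (-1.04 in G and -2.39 in H), but in H it was 3.14 without EB H-03. It also lost the call within G without EB G-11 (-0.99), EB G-13 (-0.79), MB G-03 (-0.95) or MB G-04 (-0.63). CENPE, a kinetochore motor, had 1.50 in G and 0.81 in H.

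Stress and cell death genes held 2 higher calls. Of 12 p53 and stress genes, 4 were higher and 7 lower in G (median -1.73, or 0.08 without EB G-13), and 8 were higher and 1 lower in H (median 2.02). GADD45A, a p53-induced stress gene, was called higher and kept the call whichever cell was left out. It stood at 230.1, 187, 235 and 0.051 RPKM in middle and 94.1, 20.7 and 5.19 RPKM in early blastocyst G cells (2.00), and at 119.8, 153, 3.5 and 56.9 RPKM in middle and 0.0695 and 0.0896 RPKM in early H cells (6.29). SESN2, a stress-induced inhibitor of mTORC1, was called higher (1.94 in G and 1.05 in H) but stood at 0.20 in G without MB G-03 and at 0.38 in H without EB H-03, and lost the call without MB H-05 (0.87 in H) or MB H-10 (0.56 in H) as well. CDKN1A (p21), the p53-induced inhibitor of the cell cycle, was at 63.0, 0.284, 0.0256 and 20.1 RPKM in middle H cells with early H cells at 0, and at 0.0717 RPKM or less in G. ATF3, a stress-induced transcription factor, stood at 0.159 RPKM or less in middle and 48.0, 60.8 and 8.32 RPKM in early blastocyst G cells (-5.27), and was listed at 0 in all H cells. GDF15, a stress-induced cytokine, had -2.84 in G and -0.47 in H. Apoptosis genes had 1 of 8 higher and 4 lower in G (median -0.98) and 4 of 11 higher and 2 lower in H (median 0.34), where 35.8% of all genes were higher and 27.6% lower. CASP9, the initiator caspase of the mitochondrial pathway, had 0.97 in G and 4.17 in H, and BID, which links death receptors to that pathway, -2.10 and -0.97. BCL2L11 (BIM), a pro-apoptotic protein, was at 14.0 and 35.3 RPKM in early H cells with middle H cells at 0, and at 0.225 RPKM or less in G.

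Oocyte genes, genome activation genes and metallothioneins closed the lists. Only 4 of 17 oocyte genes in the table were measured over the 13 cells, with 0 of 4 higher and 2 lower in G (median -0.97) and 1 higher and 1 lower of 4 in H (median -0.38). OOEP, a subunit of the subcortical maternal complex of the oocyte, stood at 1102, 1814, 795 and 520.4 RPKM in middle and 2019.8 and 2162 RPKM in early H cells (-0.98), and at 129, 262, 178 and 65.8 RPKM in middle and 143, 506 and 745 RPKM in early G cells (-1.55), where MB G-03 and MB G-04 lay in the early range. KHDC3L, of the same complex, had -0.39 in G and -2.65 in H, without overlap in H. TLE6, of the same complex, was called lower but rested on EB G-18 (22.6 RPKM) and EB H-03 (4.33 RPKM), with 0.58 in G and 0.09 in H without them. NLRP7, an imprinting-related oocyte protein, was abundant throughout, at 1513 to 2102 RPKM in middle and 1079 to 1771 RPKM in early cells. Of the genome activation genes 4 were measured and DPRX was the only call, with 0 of 3 higher and 2 lower in G (median -1.54) and 1 higher and 1 lower of 4 in H (median -0.25, or 0.08 with median-of-ratios size factors). ARGFX, a PRD-like homeobox gene, had -1.87 in G and -0.48 in H, the zinc finger gene ZNF280A -1.54 and 1.27, and the histone gene H3F3C 0.62 and -0.03. Metallothionein and iron genes had 0 calls, with 0 of 7 higher and 2 lower in G (median -0.28) and 3 of 7 higher and 0 lower in H (median 0.24). MT1A and MT1X, metal-binding proteins, had their highest values in MB H-03 (1707 and 1127 RPKM). FTH1, the ferritin heavy chain, stood at 16681 to 49895 RPKM in middle and 12555 to 32649 RPKM in early cells, the highest level named here, and TFRC, the transferrin receptor, had -1.65 in G and 0.24 in H.

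**Figure D5:**
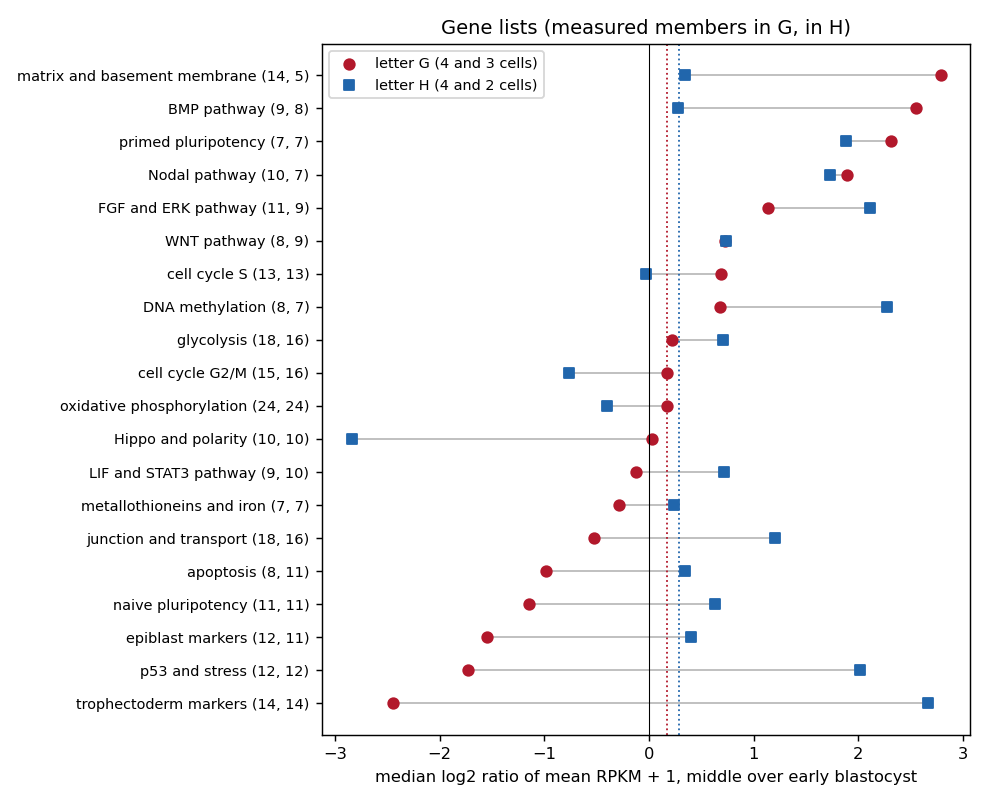
Median log2 ratio of mean RPKM + 1, middle over early blastocyst, of the measured members of each gene list within letter G (red circles) and letter H (blue squares), with the number of measured members in G and in H in brackets. The dotted lines mark the median over all measured genes (0.17 in G and 0.28 in H), and lists with fewer than 5 measured members in a letter are left out. The letters lie farthest apart for the trophectoderm list (-2.45 in G and 2.67 in H).

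Inner cells of later embryos of the same letters gave a setting for these values. In letter G, GATA4 had medians of 0.102 RPKM in the early, 122 in the middle, 0.115 in the late (15 cells) and 0.019 in the hatched blastocyst (9 cells), with 3 of 15 late and 1 of 9 hatched cells at 5 RPKM or more. In letter H its medians were 0.0466, 0, 17.3 (4 cells) and 0.0451 RPKM (9 cells), with 3 of 4 late cells at 5 RPKM or more. Middle blastocyst G cells were thus the only group of letter G in which every cell was high in GATA4, and in letter H cells at 5 RPKM or more were seen in the late blastocyst and in 1 of 5 early morula cells. The stage labels of 9 late blastocyst cells conflict, since title and stage say late but the source name says hatched (all 4 of letter H and 5 of 15 of letter G). SOX2, low in all middle blastocyst cells, had medians in letter H of 18.8, 0.0139, 7.97 and 25.4 RPKM from early to hatched blastocyst. TMEM45B stayed at 0.784 RPKM or less in every late and hatched cell of both letters. ADIPOR2 kept medians of 22.1 and 12.4 RPKM in late and hatched G cells and of 19.1 and 17.8 RPKM in late and hatched H cells. TDGF1 in letter H had medians of 2.69, 41.4, 99.5 and 361 RPKM from early to hatched blastocyst, whereas in letter G they were 0.278, 11.0, 239 and 0.0598 RPKM.

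The same stages were also sampled with other letters, the middle blastocyst in letter B (4 inner cells) and the early blastocyst in letter A (5 inner cells), so that stage and letter cannot be told apart there. In that comparison 1506 of 5202 genes (29.0%) were higher and 2252 (43.3%) lower in the middle blastocyst. Of the genes called higher in letters G and H, 443 were measured there, and 146 (33.0%) were higher and 160 lower. Of those called lower, 179 were measured, and 90 (50.3%) were lower. These shares lie near those of all genes. Of the 12 named higher genes 11 were measured there, 1 of them higher and 2 lower. Of the 12 named lower genes 9 were measured there, 1 of them higher and 3 lower. DUSP6 was higher there too, at a log2 ratio of 6.30, as was TDGF1 (1.19), and DPPA3 was lower (-5.11). KRT19 (1.58), ETV4 (1.18), AXIN1 (1.08) and AURKB (1.98) were also higher, and AURKA (-2.43) and STK3 (-2.17) lower, as in G and H. CD24 (-1.93), GADD45A (-1.82), MOB1A (-4.46) and UHRF1 (-2.65), called higher in G and H, were lower there. TLE6 (4.69) and EIF4ENIF1 (3.76), called lower in G and H, were higher there. SOX2 (-0.66) and DPRX (0.96) did not pass 2-fold there. SPRY2 was not measured there, with means of 2.01 RPKM in middle and 0.04 RPKM in early cells, below the minimum of 5 RPKM. ADIPOR2 (-1.81), B4GALT3 (-2.21) and DNMT3B (-1.74) were lower there, LEFTY1 stood at 1.00, and GATA4 (-2.99), FOXA2 (-4.49) and COL4A1 (-4.70) were lower in the middle blastocyst cells of letter B.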

How the data were processed

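Each of the 95 cells has 1 value per gene symbol (16049 genes) in a table deposited by the authors that states no unit. RPKM, computed by the authors, was inferred as the unit, because values are fractional and low values come in multiples of steps that depend on gene and cell. The tools TopHat2 2.1.0, HTSeq, DESeq2 and FastQC are listed, per the submitters' processing notes, without saying what each did. The genome build and annotation are not given in the sources used here, and the protocols mention no molecular identifiers. Column names equal sample titles for all 95 columns (0 left over). Cells had been picked one by one, no caller of doublets was run, and 0 pairs of the 13 cells held identical values. The numbers in the titles only name cells.

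Reads were recovered for 10767 genes (67.1%), those whose values are whole multiples of a step within a tolerance of 0.05, so that their wholeness is no separate check and the recovered reads give a rough measure of depth.

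Group means of RPKM over cells were compared as log2 ratios, middle over early blastocyst, after adding 1 RPKM. The minimum for a measured gene was a mean of 5 RPKM in either stage. It was called where it passed 2-fold with all 13 cells and the same way within each letter. The opposite genes had to be measured in both letters. No ratio is given against a group in which all cells are at 0. The named genes are the 12 higher and 12 lower called genes without overlap of cells within either letter, ranked by the smaller ratio of the letters, the 6 largest opposite genes in each direction, the 4 largest and all called members of each of 28 lists (408 genes, 39 of them not analysed here), and 15 lineage genes. A further gene that this rule names is not reported here. The members and lists were chosen with earlier results of these data known. The comparison with letters A and B, and the run without MB G-10 and EB G-18, were added after the data were seen. The fold rule was run on simulated data with planted changes and mild variation between cells, which checks the calculation and not the calls made here. Python 3.11.15, pandas 2.3.3, numpy 2.4.6, scipy 1.17.1 and matplotlib 3.10.9 were used.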

Additional observations from a re-analysis of the deposited data

Results flagged for a closer look

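Over the 8 middle cells and over the 5 early cells, 215 sets of values of named genes were examined. Of these, 25 held a cell whose gap to its nearest neighbour was wide against the whole range (Dixon's criterion). That criterion assumes normally distributed values, while these sets mix 2 letters and hold many values near 0. Many of the genes were also named for their large ratios, so no rate expected by chance can be given. Most flagged cells were single high cells among cells near 0. In EB G-11 these were GDF3 at 82.8 RPKM, TFAP2A at 46.3 RPKM, KRT19 at 90.8 RPKM and APOC3 at 105 RPKM. In EB G-13 they were PRDM14 at 80.0 RPKM and ALDOC at 96.8 RPKM, and in EB G-18 CHURC1 at 19.2 RPKM, LYZ at 29.0 RPKM and IL6R at 23.0 RPKM. In EB H-05 they were GEMIN7 at 192 RPKM, BBOX1 at 59.4 RPKM and C14orf159 at 54.6 RPKM, and in EB H-03 ZBTB8OS at 80.6 RPKM. Among middle cells, MB H-03 stood out with LYZ at 189.5 RPKM, and MB H-05 with WNT3 at 146 RPKM. IL6R and ALDOA were flagged for a high cell among cells not near 0. IL6R at 23.0 RPKM in EB G-18 lay above the other early cells at 15.9 to 16.8 RPKM. ALDOA at 197 RPKM in MB H-05 lay above the other middle cells at 95.7 to 132 RPKM.

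The other flagged cells were low. EB H-05 had NANOG at 9.16 RPKM, AURKA at 0.0238 RPKM and TOP2A at 0.0413 RPKM, EB G-11 had FZD5 at 1.15 RPKM, and EB G-13 had MT1X at 0.311 RPKM. MB H-10 had ETV4 at 10.1 RPKM, ITGA6 at 0.0260 RPKM and KHDC3L at 0.560 RPKM, and MB G-03 had CASP9 at 0.0934 RPKM.

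For 6 named genes every middle cell lay on one side of every early cell within G and on the other side within H. The log2 ratios within G and H were 5.69 and -5.39 for COPS5, -1.12 and 1.91 for POU5F1, -4.55 and 2.06 for DSC2, -1.95 and 1.45 for ALDOA, and -1.33 and 3.29 for TYMS. PHLDA3 had -5.99 within G, and both early H cells were at 0. The difference between the letters was not tested.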

How the results depend on the processing

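No paired analysis was possible because the numbers in the titles only name cells and no test was made. Leaving out 1 cell at a time gave 603 to 831 genes higher and 273 to 448 lower in both letters, 388 to 566 higher in G and lower in H, 474 to 600 lower in G and higher in H, 1626 to 1885 higher and 1213 to 1327 lower with all cells, 2069 to 2493 higher and 1554 to 1804 lower within G, and 2112 to 2750 higher and 1432 to 1940 lower within H. The widest shifts came without EB H-03, where 75.3% of the called genes were higher in place of 62.3%. Only 136 of the 655 higher genes (20.8%) and 38 of the 396 lower genes (9.60%) were called in all 13 of these runs, as were 30 of the 48 named called genes. Counts moved by over 1.5 times under 3 settings. A pseudocount of 5 RPKM gave 371 higher and 206 lower called genes. A minimum mean of 20 RPKM gave 315 higher and 190 lower called genes, 218 opposite genes higher in G and 252 higher in H, 710 higher and 557 lower with all cells, 1076 higher and 936 lower within G, and 1228 higher and 863 lower within H, where fewer genes are measured. The median over cells gave 418 higher called genes, 875 opposite genes higher in G and 330 higher in H, and 1486 higher within H, and the cause was not tested. The share of called genes that were higher was 51.2% with the mean of log2 values and 47.2% with the median over cells. Median-of-ratios size factors moved the median log2 ratio of all genes to -0.04 in G and 0.61 in H, and gave 367 opposite genes higher in G and 672 higher in H. Size factors over genes above 0 in all 13 cells moved it to 0.02 and 0.39 and gave 431 and 582. The run without MB G-10 and EB G-18 gave 697 higher and 426 lower called genes. The 13-cell log2 ratios of the 48 named called genes moved by less than the spread between cells in 1119 of 1152 alternative values and reversed in 0. For the 90 other named genes 2092 of 2160 values moved by less than that spread, so this measure does not set called genes apart. The 48 genes had been called for passing 2-fold in the same values, so a reversal was unlikely beforehand. Ratios within a letter did change sign without 1 cell, such as AURKA in H (3.14) and AXIN1 in H (-0.98). Of the 48 genes, 18 lost their call in at least 1 of the runs without 1 cell. Groups of 2 to 4 cells, and genes read in a few cells, limit what these ratios can show.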

Other observations

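Some measured members of the gene lists were not among the named genes and are given here because of their values, which were seen first. CLDN4, a tight junction claudin of the trophectoderm list, stood at 0.194, 0.103, 0.225 and 0.433 RPKM in middle and 677, 454 and 469 RPKM in early blastocyst G cells (log2 ratio -8.75). In H it stood at 1294, 1006, 833 and 663 RPKM in middle and 144 and 497 RPKM in early cells (1.56). The stages overlapped in neither letter. KRT8, the keratin partner of KRT18, stood at 61.1, 239, 1419 and 298 RPKM in middle and 21.1 and 8.15 RPKM in early H cells (5.01), and overlapped in G (0.30). VENTX, a homeobox gene of the epiblast list, stood at 0.227 RPKM or less in middle and 30.8, 54.7 and 62.7 RPKM in early blastocyst G cells (-5.53), and at 87.1, 4.83, 47.8 and 50.6 RPKM in middle and 27.1 and 1.29 RPKM in early H cells (1.68). KLF4, a naive pluripotency factor, stood at 258, 135, 309.7 and 277 RPKM in middle and 1426, 806 and 663 RPKM in early blastocyst G cells (-1.97). In H it stood at 326, 278, 545 and 686 RPKM in middle and 292 and 249 RPKM in early cells, with MB H-05 inside the early range (0.76). Middle blastocyst G cells were thus low in VENTX and CLDN4.

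Genes of the glycolysis and DNA methylation lists added to this. PGK1, phosphoglycerate kinase, stood at 1057, 1026, 953 and 599.5 RPKM in middle and 421, 287 and 415 RPKM in early blastocyst G cells (1.28), without overlap, and at 302, 369, 206 and 71.4 RPKM in middle and 137 and 337 RPKM in early H cells (0.00). It was high in G together with SLC2A1 and unlike ALDOA and TPI1. DNMT3L, the cofactor of the de novo methyltransferases, stood at 603, 143, 795 and 517 RPKM in middle and 749, 1316 and 1569 RPKM in early blastocyst G cells (-1.23), and at 619, 296, 686 and 967 RPKM in middle and 178 and 460.2 RPKM in early H cells (1.01). In G it was lower in middle cells while DNMT3B was higher. No test stands behind any of these differences.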
